A study of Rattus norvegicus with 6 samples.

Results

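The genes described here make the fibrin clot and take it apart: the 3 fibrinogen chains (Fga, Fgb, Fgg), the 2 subunits of factor XIII (F13a1, F13b), plasminogen (Plg), the carboxypeptidase that slows fibrinolysis (Cpb2), the 2 plasminogen activators (Plat, Plau) and the receptor of the latter (Plaur). They were chosen by symbol, and all 10 were found among the 20104 genes of the deposited tables. Their RNA was measured by RNA sequencing in rat liver at the site of a trauma, on day 14 after injury. The wound had been covered with AKOC, a dressing whose abbreviation the labels do not expand and which belongs to a series on kaolin anchored on cotton, in 3 libraries, and with Quik-clot, a commercial haemostatic dressing used as the control, in 3 libraries. Strain, sex and age of the rats are not in the labels, and no uninjured liver is among the samples. The labels do not tie the libraries to individual rats, so every p-value here rests on library-to-library spread that could be technical.

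Fibrinogen is secreted by hepatocytes as a hexamer of paired alpha, beta and gamma chains. Thrombin turns it into fibrin, factor XIII crosslinks the strands, and plasmin, made from plasminogen by tissue-type or urokinase-type activator, dissolves them. In the liver the 3 chain genes are known as acute phase genes that respond to interleukin 6, whereas the factor XIII A subunit is known from macrophages and megakaryocytes and the activators from endothelial cells, macrophages and stromal cells.

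The 3 chain genes lie next to each other among the counted genes, with Fgg, Fga and Fgb in that order and the retinol esterifying enzyme gene Lrat and the splicing factor gene Plrg1 on either side. Promoter windows, the 250 bases before the annotated start, were taken from the RefSeq table of the GRCr8 assembly, which held 8 of the 10 genes. The counts were made on another build, mRatBN7.2, so these positions belong to the promoter table alone. The windows of the fibrinogen chains are shown because their RNAs varied together, and that of Plg because its RNA, also from hepatocytes, did not follow them. Capitals mark CTGGGA, the core of the interleukin 6 response element, on either strand, so that TCCCAG is the same core read from the other strand. Fga lies at chr2:170671919-170672168 (plus strand), Fgb at chr2:170700876-170701125 (minus strand), Fgg at chr2:170652833-170653082 (plus strand) and Plg at chr1:50915407-50915656 (minus strand), each written 5′ to 3′ on the strand of its gene. For Fga, which has 2 starts in the table, the more upstream one was used.
Fga: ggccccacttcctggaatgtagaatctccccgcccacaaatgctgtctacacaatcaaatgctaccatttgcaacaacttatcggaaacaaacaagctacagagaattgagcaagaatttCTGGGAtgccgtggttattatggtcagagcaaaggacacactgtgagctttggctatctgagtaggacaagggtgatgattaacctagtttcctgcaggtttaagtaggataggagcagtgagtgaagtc
Fgb: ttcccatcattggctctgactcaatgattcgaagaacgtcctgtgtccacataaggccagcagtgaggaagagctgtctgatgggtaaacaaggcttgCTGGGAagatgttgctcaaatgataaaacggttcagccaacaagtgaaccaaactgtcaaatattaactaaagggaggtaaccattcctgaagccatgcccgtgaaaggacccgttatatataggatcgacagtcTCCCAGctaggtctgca
Fgg: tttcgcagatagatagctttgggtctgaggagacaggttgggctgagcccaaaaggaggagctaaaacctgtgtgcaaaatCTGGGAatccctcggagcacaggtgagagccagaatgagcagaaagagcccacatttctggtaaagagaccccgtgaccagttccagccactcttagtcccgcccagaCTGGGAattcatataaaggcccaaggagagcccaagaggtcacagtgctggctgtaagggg
Plg: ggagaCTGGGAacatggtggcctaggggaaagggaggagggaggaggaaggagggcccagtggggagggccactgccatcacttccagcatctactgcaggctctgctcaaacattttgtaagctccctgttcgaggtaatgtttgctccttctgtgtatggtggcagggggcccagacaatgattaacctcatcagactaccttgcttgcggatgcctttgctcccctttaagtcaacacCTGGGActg

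CTGGGA begins 130 bases before the start in Fga, 152 and 17 bases before it in Fgb, 169 and 61 bases before it in Fgg, and 245 and 9 bases before it in Plg. It also occurred in the windows of F13a1 and Plaur and was not among the letters of those of F13b and Plau. Of 27457 rat promoter windows of the same length, 25.8% held it. GTTAAT, a core of sites for the hepatocyte factor HNF1, was found on either strand in Fga, Fgb, F13b and Plg and in 6.49% of all windows. TTGCNNAA, a form of the C/EBP site, was found in Fga, Fgb, F13a1 and Plaur and in 9.21% of all windows. None of the 3 motifs overlapped another in these windows. A match is a description of the letters and not evidence of binding.

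Library totals ran from 40402312 to 41455378 counts, a narrow range, and all 10 genes were among the 13872 genes that passed the filter on low counts. Levels between libraries are given as CPM, counts scaled to a common library size with TMM factors (trimmed mean of M-values). Levels between genes are given as FPKM, the authors' values per transcript length. Hepatocyte markers were high in every library, with albumin at 7.02% to 11.7% of counts, as the liver label implies. Quik-clot replicate 3 stood apart from the others in its acute phase genes, and Quik-clot replicate 2 was highest for 11 of 14 macrophage markers. The main counts and the values that turned without these libraries are also given without them.

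No member differed between the dressings past the threshold. The edgeR quasi-likelihood test called 0 of 10 at an adjusted p under 0.05, against 0% of all genes tested, and 0 of 10 at an unadjusted p under 0.05, against 12.5% of all genes tested. It also called 0 of 10 with Quik-clot replicate 2 or replicate 3 left out, where it called 18 of 14146 and 0 of 14197 genes tested. DESeq2 and limma-voom also called 0 of 10, where DESeq2 called 2.09% of all genes and limma-voom called 0 genes. Neither put a member at an unadjusted p under 0.05. The share of all genes at that p in these methods is not given here, so this is not read as a result. The dressings overlapped in all 10 genes, while 18.4% of all genes tested had dressings that did not overlap. Log2 fold changes, AKOC over Quik-clot, were above 0 for 4 members, against 48.0% of all genes tested, and below 0 for 6, against 52.0%, with a median of -0.081 against -0.015 over all genes tested. What the genes show lies in their levels, in the spread among libraries and in which of them varied together.

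**Figure D1:**
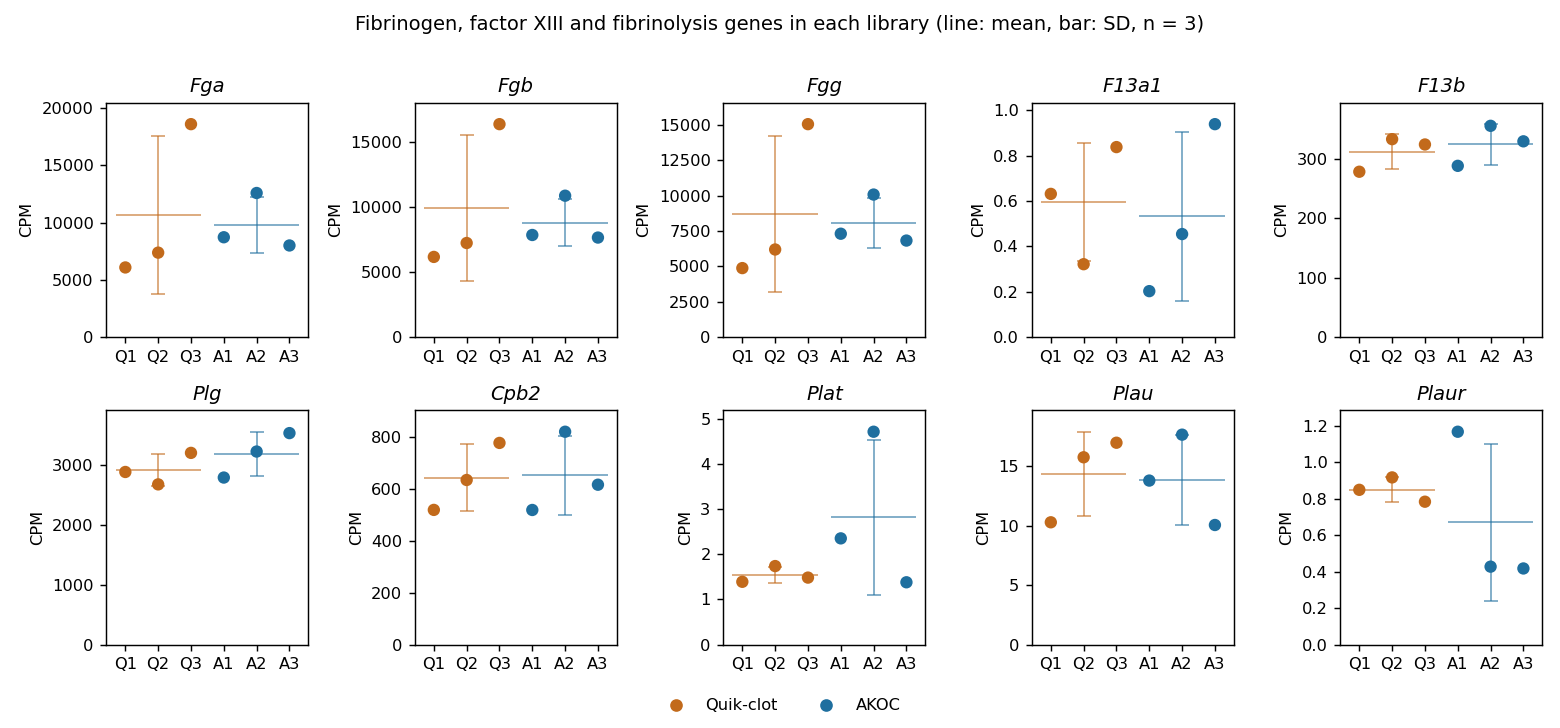
Level of each gene in CPM (vertical axes, from 0) in the 6 libraries (Q1 to Q3, Quik-clot replicates 1 to 3; A1 to A3, AKOC replicates 1 to 3), with the mean and SD of each dressing (n = 3). Fga, Fgb and Fgg share their highest point in Quik-clot replicate 3, Plat is highest in AKOC replicate 2, and the dressings overlap in every panel.

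The members spanned a wide range of abundance. Mean FPKM over the 6 libraries fell from Fgb at 5212 ± 1674 (SD, n = 6, as for the values in this paragraph) through Fgg at 3680 ± 1318, Fga at 3506 ± 1304, Plg at 1117 ± 74.5 and Cpb2 at 404 ± 47.6 to F13b at 133.9 ± 8.93. Far below these plasma protein genes came Plau at 6.02 ± 1.22 FPKM, Plat at 0.840 ± 0.444, Plaur at 0.626 ± 0.279 and F13a1 at 0.160 ± 0.077. Each gene stood above the next of this order in 6 of 6 libraries, except that Plat exceeded Plaur in 2 of 6. Those 2 neighbours did not differ beyond their spread. In whole tissue, fewer cells of a type and less RNA per cell cannot be told apart, so a level here is that of the sampled tissue. The margin of Fgg over Fga was narrow, a median ratio of 1.05, though it held in every library.

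**Figure D2:**
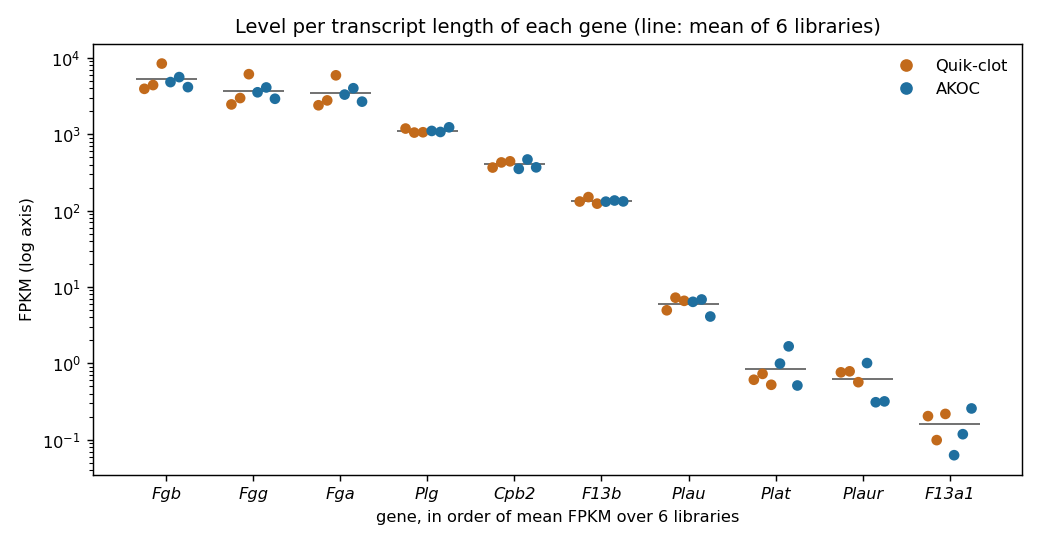
FPKM (log axis) of each gene in the 6 libraries, genes ordered by their mean, which the grey lines mark. The 6 genes of plasma proteins lie above 100 FPKM, and Plau, Plat, Plaur and F13a1 lie below 10.

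Fibrinogen was among the most abundant products of these livers, and its level differed more among the Quik-clot libraries than between the dressings. The 3 chains together took 1.92%, 2.22% and 4.52% of all counts in Quik-clot replicates 1, 2 and 3 and 2.57%, 3.03% and 2.13% in AKOC replicates 1, 2 and 3. The share was highest in Quik-clot replicate 3 and lowest in Quik-clot replicate 1, and AKOC replicate 3 lay between Quik-clot replicates 1 and 2. By FPKM, Fgb ranked between 12 and 23 among all genes of a library.

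Fga, the alpha chain that carries the first peptide thrombin removes, stood at 6077, 7373 and 18612 CPM in Quik-clot replicates 1, 2 and 3 and at 8719, 12590 and 8000 CPM in AKOC replicates 1, 2 and 3. Quik-clot replicate 3 was 2.77 times the mean of the other Quik-clot libraries and 1.48 times the highest AKOC library. The AKOC mean was 9770 ± 2469 CPM and the Quik-clot mean 10688 ± 6893 CPM (SD, n = 3 per dressing, as for all means of a dressing here). The log2 fold change of Fga was -0.13 ± 0.61 (SE; edgeR, adjusted p = 0.94), with a 95% interval from -1.56 to 1.30. This interval spans a fall to 0.339 of the Quik-clot level and a rise to 2.47 times it, so neither a sizeable fall nor a sizeable rise could be told from the spread.

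Fgb, the beta chain, followed the same order, with 6171, 7244 and 16410 CPM in Quik-clot replicates 1 to 3 and 7862, 10892 and 7664 CPM in AKOC replicates 1 to 3. Its log2 fold change was -0.18 ± 0.56 (SE; edgeR, adjusted p = 0.91). Fgg, the gamma chain that also holds the platelet binding end, had 4867, 6183 and 15045 CPM in the Quik-clot libraries, replicates 1 to 3, and 7298, 10067 and 6814 CPM in the AKOC ones. Its log2 fold change was -0.11 ± 0.57 (SE; edgeR, adjusted p = 0.95). The 6 libraries stood in the same order for all 3 chains, with a Spearman rho of 1.0 for each pair over 6 libraries and Pearson r from 0.993 to 0.998 on log2 CPM. These are descriptions of points that share libraries and scaling.

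The direction for fibrinogen rested on Quik-clot replicate 3. Without it, the log2 fold changes of Fga, Fgb and Fgg were 0.54 ± 0.48, 0.39 ± 0.45 and 0.55 ± 0.44 (SE; edgeR, adjusted p = 0.71, 0.78 and 0.67), so their sign turned. All 3 AKOC libraries then lay above both remaining Quik-clot libraries in CPM for each chain. This order rested on the TMM factors, since in raw counts AKOC replicate 3 (306793 for Fga) was below Quik-clot replicate 2 (321673 for Fga) for each chain. Over the mean of those libraries, the AKOC mean was 1.45 times as high for Fga, 1.31 times for Fgb and 1.46 times for Fgg. The test did not call these differences either.

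The chains kept nearly fixed proportions. Of the summed FPKM of the 3 chains, Fga took 28.1% ± 0.854, Fgb 42.3% ± 1.52 and Fgg 29.6% ± 0.856 (SD over 6 libraries). The FPKM ratio of Fgg to Fga stayed between 1.02 and 1.09, and that of Fgb to Fga between 1.40 and 1.64. The Fgb ratio was lowest in AKOC replicate 2 and Quik-clot replicate 3, the libraries with the most fibrinogen, and highest in Quik-clot replicate 1, the library with the least. Between dressings, the log2 ratio of Fgb to Fga differed by -0.078 (exact two-sided permutation p = 0.3, adjusted p = 1.0) and that of Fgg to Fga by 0.023 (exact permutation p = 0.7, adjusted p = 1.0). The p-values were adjusted over the 11 ratios computed here, and 3 libraries against 3 cannot give an exact p below 0.1.

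The genes that flank the chain genes differed in their profiles. Lrat, a gene of stellate cells, stood at 16.997, 37.9 and 14.2 CPM in Quik-clot replicates 1 to 3 and at 40.7, 25.1 and 36.2 CPM in AKOC replicates 1 to 3, and was thus lowest where fibrinogen was highest. Plrg1 ranged only from 18.999 to 26.9 CPM, with its lowest value in Quik-clot replicate 1 and its highest in Quik-clot replicate 3, as for fibrinogen. Over 6 libraries, the Pearson r with the mean of the chains was 0.835 for Plrg1 (Spearman rho = 0.486) and -0.461 for Lrat (rho = -0.257).

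Acute phase genes shared the fibrinogen pattern. Of 24 genes in a list of acute phase proteins and interleukin 6 signalling, 18 were highest in Quik-clot replicate 3, or 75.0%, against 20% of all genes tested. The list, like the others here, was drawn up with earlier results of these data known. Log2 CPM of 18 of the 24 correlated with the mean of the chains at a Pearson r above 0.7 over 6 libraries, given as a description of points that share libraries. The share of all genes tested above that r is not given here, so the count has no background to be read against. Haptoglobin, the haemoglobin scavenger (Hp), stood at 10598, 14270 and 28213 CPM in Quik-clot replicates 1 to 3 and 12980.5, 25229 and 9006 CPM in AKOC replicates 1 to 3. Orm1, which encodes an acute phase glycoprotein, stood at 823, 1737 and 11304 CPM and at 1811, 8359 and 791 CPM. Socs3, a target and inhibitor of the interleukin 6 pathway, was at 50.3 CPM in Quik-clot replicate 3 against 5.71 to 11.965 CPM in the rest. Of this list, 0 passed the edgeR threshold, 0 were higher and 2 lower after AKOC at an unadjusted p under 0.05, against 6.78% and 5.69% of all genes tested. These 2 were Hamp (log2 fold change -2.32 ± 0.98, SE) and Il6r (-0.44 ± 0.18), neither of which followed fibrinogen closely. In 1 of the 24, Socs3, every AKOC library was below every Quik-clot library, against 8.84% of all genes tested. The list had 4 positive and 20 negative log2 fold changes, with a median of -0.31 against -0.015 over all genes tested. These signs rested on Quik-clot replicate 3: without it 14 were positive and 10 negative, with a median of 0.13 against -0.0047 over all genes tested, and 15 of the 24 were highest in AKOC replicate 2 (62.5%, against 17.1% of all genes tested).

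The list was not uniform, and the genes given here were chosen after their values were seen. Hamp, the iron hormone hepcidin and also an interleukin 6 target, ran the other way, with 822, 460.4 and 56.7 CPM in Quik-clot replicates 1 to 3 and 177, 63.8 and 27.2 CPM in AKOC replicates 1 to 3. Its correlation with fibrinogen was negative (Pearson r = -0.62, Spearman rho = -0.657, 6 libraries), as was that of Serpina3c (r = -0.478). Apcs, the pentraxin of amyloid, ranged narrowly from 633 to 840.2 CPM. The receptor chains Il6r and Il6st had Pearson r of 0.26 and 0.373. C3, Crp and Itih4 correlated with fibrinogen (r = 0.887, 0.758 and 0.868) but were highest in AKOC replicate 2, at 22987, 8320 and 11201 CPM. In Quik-clot replicate 3 they stood at 20837, 7550 and 9329 CPM. Their log2 fold changes were 0.13 ± 0.64, 0.31 ± 0.41 and 0.24 ± 0.52 (SE).

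Some markers of other cell types were also uneven in that library. Summed CPM of 9 neutrophil markers was 108 in Quik-clot replicate 3. It was 7.595 and 20.2 in the other Quik-clot libraries and 12.2 to 48.9 in the AKOC libraries. S100a8 and S100a9, at 43.01 and 55.93 CPM, made up most of the sum in Quik-clot replicate 3. Of the 5 markers that passed the filter, 4 were highest there. Csf3r was instead highest in AKOC replicate 1, at 6.78 CPM against 4.13 CPM in Quik-clot replicate 3. Fcnb nearly met in these libraries, at 2.22 and 2.24 CPM. The granulocyte enzymes Mpo and Elane had 3 counts or fewer in every library. Whether neutrophils had a part in the fibrinogen level was not tested. The summed level of 8 hepatocyte markers in Quik-clot replicate 3 (146993 CPM) was below those of AKOC replicates 2 and 3 (151305 and 175101 CPM). Albumin made up most of these sums, at 90199, 91893 and 122898 CPM in that order. With each marker taken relative to its mean log2 CPM over the 6 libraries, the median of the 8 was instead highest in Quik-clot replicate 3. It was 0.189 there, against 0.105 and 0.165 in AKOC replicates 2 and 3. Set against the median log2 level of these markers within each library, fibrinogen was highest in Quik-clot replicate 3 in CPM, with a log2 ratio of 2.13 against 0.37 to 1.58 in the other libraries. In FPKM it was not, with a log2 ratio of 2.26 there, 2.31 in AKOC replicate 1 and 2.497 in AKOC replicate 2. The markers at the middle of the list differed between CPM and FPKM and between libraries. The denominators of these ratios are therefore not the same genes throughout.

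**Figure D3:**
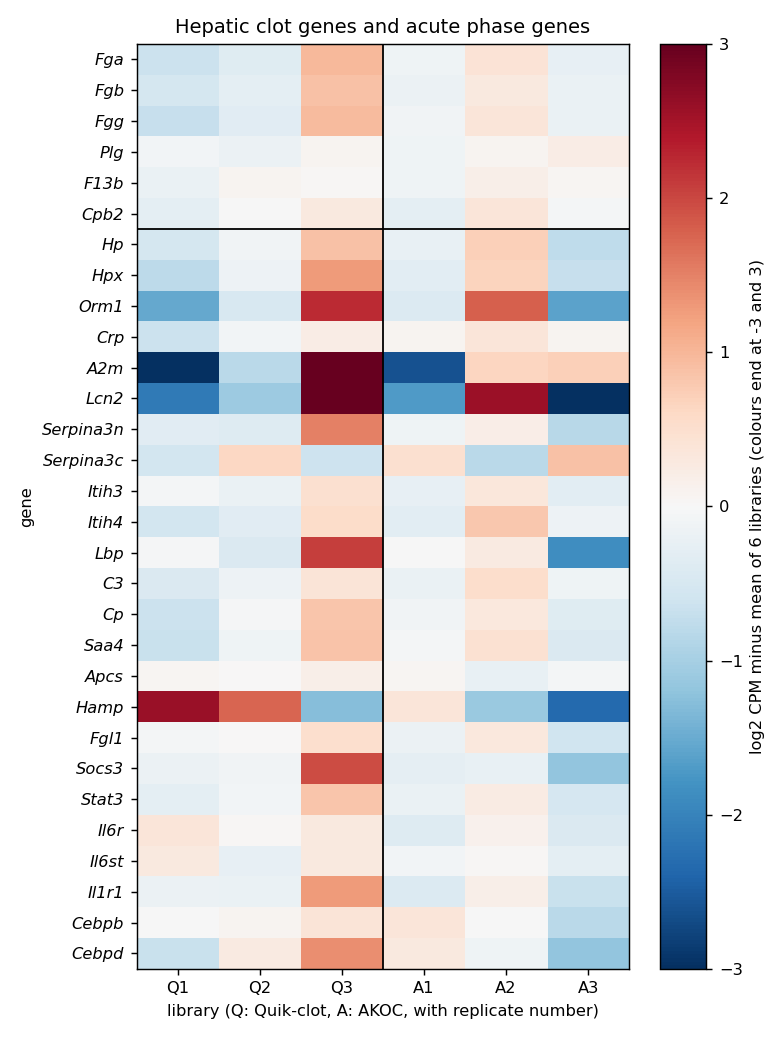
Log2 CPM of 6 hepatic clot genes (upper rows) and 24 acute phase and interleukin 6 pathway genes (lower rows) in each library, relative to the mean of the 6 libraries; red is above and blue below, and the colours end at -3 and 3. Fga, Fgb and Fgg are highest in Quik-clot replicate 3 along with 18 of the 24 genes, while Plg and F13b stay near the mean.

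The 4 genes whose profile over the 6 libraries was most like fibrinogen, among 6924 searched, were Prpsap1 (Pearson r = 0.986, Spearman rho = 0.829), Fn1 (r = 0.985, rho = 0.943), Adh5 (r = 0.983, rho = 0.943) and Git1 (r = 0.977, rho = 1.0). Fn1, which encodes fibronectin, a protein that factor XIII crosslinks to fibrin, stood at 1688, 1903 and 3405 CPM in Quik-clot replicates 1 to 3 and at 2110, 2620 and 2241 CPM in AKOC replicates 1 to 3. Its range was narrower than that of the fibrinogen chains but its highest library was the same.

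The subunits of factor XIII lay at opposite ends of the scale. F13b, the carrier subunit made by hepatocytes, stood at 278, 333 and 324 CPM in Quik-clot replicates 1 to 3 and at 288, 356 and 329.6 CPM in AKOC replicates 1 to 3. It varied least of all members, with a coefficient of variation of 9.2% over the 6 libraries against a median of 18.8% over all genes tested. Its log2 fold change was 0.057 ± 0.14 (SE; edgeR, adjusted p = 0.88), and the 95% interval from -0.27 to 0.38 bounds any change between 0.831 and 1.30 times the Quik-clot level.

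F13a1, the catalytic subunit, was close to the limit of detection at this depth. It had 29, 14 and 31 counts in Quik-clot replicates 1 to 3 and 9, 17 and 36 counts in AKOC replicates 1 to 3. The exact Poisson 95% interval of the lowest library, AKOC replicate 1, was 4.12 to 17.1 counts and that of the highest, AKOC replicate 3, 25.2 to 49.8, so libraries of the same dressing differed beyond counting error. Per transcript length, F13b exceeded F13a1 by 513 to 2086 times. The log2 fold change of F13a1 was -0.17 ± 0.62 (SE; edgeR, adjusted p = 0.92), and it turned positive without AKOC replicate 1 (0.23) or without Quik-clot replicate 3 (0.13).

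The 14 markers summed to 1334, 2173 and 1681 CPM in Quik-clot replicates 1 to 3 and 1593, 1596 and 1115 CPM in AKOC replicates 1 to 3, and F13a1 was highest in AKOC replicate 3, where these markers were lowest. Among the most abundant were Clec4f, a lectin of Kupffer cells, at 220 to 328 CPM, and Cd5l at 143.5 to 378 CPM. Of the 14 macrophage markers, 2 had positive and 12 negative log2 fold changes. The edgeR test placed 3 lower at an unadjusted p under 0.05, against 5.69% of all genes tested, and called 0 at the adjusted threshold. In 2 of the 14, every AKOC library lay below every Quik-clot library, against 8.84% of all genes tested. Quik-clot replicate 2 was highest for 11 of the 14. Relative to the median of the markers, the log2 level of F13a1 differed between dressings by 0.014 (exact permutation p = 1.0, adjusted p = 1.0), and by -0.54 without Quik-clot replicate 2. Of the 8 platelet and megakaryocyte markers, 7 were in the table and 3 passed the filter, with Ppbp at 0 to 0.27 CPM and Itga2b at 8.77 to 17.6 CPM. The part of either cell type in the F13a1 level was not tested.

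Plasminogen was steady. Plg, the precursor of plasmin, stood at 2877, 2670 and 3195 CPM in Quik-clot replicates 1 to 3 and at 2784, 3217 and 3525 CPM in AKOC replicates 1 to 3. The dressings overlapped, with AKOC replicate 3 highest and Quik-clot replicate 2 lowest. Its coefficient of variation was 10.6%, below that of 103 of the 112 genes with a mean of at least 1000 CPM, while Fga had 45.5% with 23 such genes above it. The log2 fold change of Plg was 0.12 ± 0.26 (SE; edgeR, adjusted p = 0.86), and it was positive in every setting tried.

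The ratio of plasminogen to fibrinogen ran inversely to the fibrinogen level. This follows largely from its making, with a steady Plg over a varying fibrinogen, and is not a separate result. The FPKM of Plg over the geometric mean of the 3 chains was 0.417, 0.317 and 0.158 in Quik-clot replicates 1 to 3 and 0.288, 0.237 and 0.387 in AKOC replicates 1 to 3. It was lowest in Quik-clot replicate 3 and highest in Quik-clot replicate 1, with the AKOC libraries between them. The log2 ratio differed between dressings by 0.11 (exact permutation p = 0.9, adjusted p = 1.0), and by -0.29 without Quik-clot replicate 3.

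Cpb2 encodes the procarboxypeptidase also called thrombin-activatable fibrinolysis inhibitor, which trims the lysines that plasminogen binds on fibrin. It stood at 518, 633 and 775 CPM in Quik-clot replicates 1 to 3 and at 517, 818 and 615 CPM in AKOC replicates 1 to 3. Its highest libraries, AKOC replicate 2 and Quik-clot replicate 3, were those with the most fibrinogen, and the Pearson r of Cpb2 with Fga was 0.81 (Spearman rho = 0.543, 6 libraries). The log2 fold change was 0.018 ± 0.23 (SE; edgeR, adjusted p = 0.98), with a 95% interval from -0.52 to 0.56.

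Plat, the tissue-type activator, was the member with the smallest p and did not pass the threshold. It had 64, 76 and 55 counts in Quik-clot replicates 1 to 3 and 105, 177 and 53 counts in AKOC replicates 1 to 3, or 1.39, 1.74 and 1.49 CPM against 2.36, 4.73 and 1.38 CPM. AKOC replicates 1 and 2 lay above all Quik-clot libraries, and AKOC replicate 3 lay below them all. The AKOC mean was 2.82 ± 1.72 CPM and the Quik-clot mean 1.54 ± 0.18 CPM. The log2 fold change was 0.87 ± 0.43 (SE; edgeR, unadjusted p = 0.0828, adjusted p = 0.44), with a 95% interval from -0.15 to 1.89.

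The Plat value depended on which AKOC library was included. Without AKOC replicate 2 it was 0.28 ± 0.33 (SE; edgeR, adjusted p = 0.81), and without AKOC replicate 3 it was 1.20 ± 0.35 (SE; edgeR, unadjusted p = 0.0123, adjusted p = 0.64). In the RefSeq annotation Plat overlaps Ikbkb and a pseudogene. The strand setting of the counting is not given in the sources used here, so how reads of the overlap were assigned is not known. Endothelial markers summed to between 499 and 549 CPM in the Quik-clot libraries and between 439 and 506 CPM in the AKOC libraries, and their part in the Plat level was not tested. Relative to the median of 9 such markers, the log2 level of Plat differed by 0.79 between dressings (exact permutation p = 0.2, adjusted p = 1.0), by 0.40 without AKOC replicate 2 and by 1.13 without AKOC replicate 3.

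Plau, the urokinase-type activator, stood at 10.3, 15.8 and 17.0 CPM in Quik-clot replicates 1 to 3 and at 13.8, 17.7 and 10.1 CPM in AKOC replicates 1 to 3. The dressings covered almost the same range. Its log2 fold change was -0.051 ± 0.26 (SE; edgeR, adjusted p = 0.94). The log2 ratio of Plau to Plat was lower in each AKOC library, at 2.55, 1.90 and 2.86, than in the Quik-clot libraries, at 2.89, 3.18 and 3.52, by 0.75 on average. AKOC replicate 3 (2.86) and Quik-clot replicate 1 (2.89) nearly met. This was the smallest exact permutation p that 3 against 3 can give (p = 0.1), and the p adjusted over the 11 ratios was 1.0. Leaving out AKOC replicate 2 gave a difference of -0.49, and leaving out AKOC replicate 3 gave -0.97.

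Plaur, the receptor that holds urokinase on the cell surface, had 39, 40 and 29 counts in Quik-clot replicates 1 to 3 and 52, 16 and 16 counts in AKOC replicates 1 to 3. In CPM these were 0.849, 0.917 and 0.784 against 1.17, 0.427 and 0.417, so AKOC held both the highest and the lowest libraries while the Quik-clot libraries lay close together. The exact Poisson 95% intervals of AKOC replicate 1 (38.8 to 68.2 counts) and of AKOC replicates 2 and 3 (9.15 to 25.98 counts each) did not overlap. The log2 fold change was -0.33 ± 0.46 (SE; edgeR, adjusted p = 0.79). Without AKOC replicate 1 it was -1.01 ± 0.38 (SE; edgeR, unadjusted p = 0.0367, adjusted p = 0.41), and without AKOC replicate 3 it was -0.08 ± 0.49. Relative to the median of the macrophage markers, the log2 level of Plaur differed by -0.18 (exact permutation p = 0.8, adjusted p = 1.0), and by -0.28 without Quik-clot replicate 2.

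**Figure D4:**
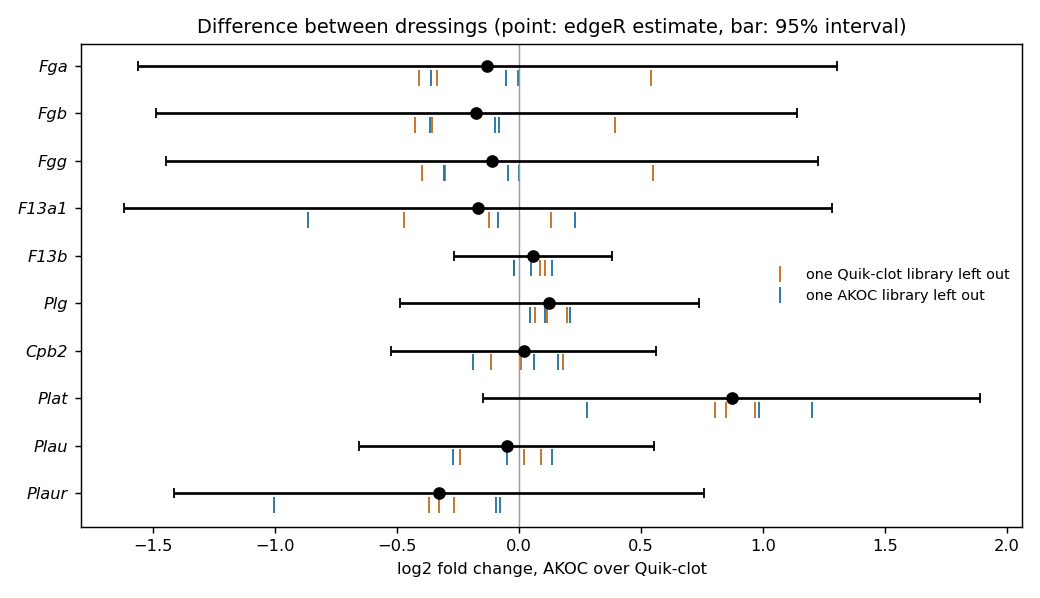
Log2 fold change, AKOC over Quik-clot, of each gene (horizontal axis; point, edgeR estimate with all 6 libraries; bar, 95% interval; coloured ticks, the estimate with 1 library left out). Every interval includes 0, the fibrinogen chains turn positive when Quik-clot replicate 3 is left out, and F13b has the narrowest interval.

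The profiles of the remaining members resembled different genes. Over the 6 libraries, Cpb2 was most like the complement regulator gene Cfi (Pearson r = 0.973, Spearman rho = 1.0), F13b like the stress gene Nupr1 (r = 0.966, rho = 1.0) and Plg like Pigr, the receptor that carries immunoglobulin A into bile (r = 0.9897, rho = 1.0). With 6924 genes searched over 6 libraries, these coefficients are descriptions. The low members Plat, Plau, Plaur and F13a1 were matched best by Cdk8 (r = 0.961), Smarce1 (r = 0.995), Nfyb (r = 0.999) and Polr3gl (r = 0.988).

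The wider set of genes that form, limit or dissolve fibrin also held no gene past the threshold. Of 38 genes listed, 36 were tested, with 18 positive and 18 negative log2 fold changes and a median of 0.002. The edgeR test called 0 at an adjusted p under 0.05 and placed 0 at an unadjusted p under 0.05, against 12.5% of all genes tested. DESeq2 also called 0, against 2.09% of all genes, with 2 at an unadjusted p under 0.05. The share of all genes at that unadjusted p in DESeq2 is not given here, so the 2 are not read as a result. The dressings did not overlap in 1 of the 36, with AKOC above, against 9.53% of all genes tested. That gene was Hrg, histidine-rich glycoprotein, which binds plasminogen and fibrinogen, at 1367, 1776 and 1245 CPM in AKOC replicates 1 to 3 and 1209, 1009 and 1175 CPM in Quik-clot replicates 1 to 3 (log2 fold change 0.37 ± 0.21, SE; edgeR, adjusted p = 0.50).

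Among inhibitors of fibrinolysis, Serpine2, protease nexin, which inhibits the plasminogen activators, stood at 7.01, 11.1 and 10.1 CPM in Quik-clot replicates 1 to 3 and at 20.4, 9.77 and 14.8 CPM in AKOC replicates 1 to 3 (0.67 ± 0.29, SE; edgeR, adjusted p = 0.40). Serpinf2, the plasmin inhibitor from hepatocytes, was steady at 557 to 786 CPM, with a log2 fold change of -0.041 ± 0.18. These inhibitors did not pass the threshold in either direction.

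Around thrombin, the prothrombin gene F2 ranged from 1489 to 2413 CPM, highest in Quik-clot replicate 3, with a log2 fold change of 0.10 ± 0.28. Thbd, thrombomodulin, which turns thrombin toward activating Cpb2, ranged from 8.71 to 19.9 CPM (-0.16 ± 0.29), and its highest library was again Quik-clot replicate 3. The plasminogen docking genes Anxa2 and S100a10, which form the annexin A2 complex, had log2 fold changes of 0.50 ± 0.28 and -0.10 ± 0.28, and Plgrkt, a membrane receptor for plasminogen, 0.46 ± 0.30. Anxa2 was at 6.03, 13.6 and 11.9 CPM in Quik-clot replicates 1 to 3 and 16.1, 14.9 and 13.56 CPM in AKOC replicates 1 to 3, so that AKOC replicate 3 and Quik-clot replicate 2 met. Quik-clot replicate 3 was the highest library for 13 of the 36 genes, 36.1%, against 20% of all genes tested. A2m and Fgl1, both highest there, are also in the acute phase list, so the counts for these lists share genes.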

How the data were processed

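Gene counts for 6 rat liver libraries (3 AKOC, 3 Quik-clot, day 14) were deposited by the authors as whole-number counts, and per the submitters' processing notes fastp, HISAT2, HTSeq and the mRatBN7.2 build were used. Tool versions, annotation and strand setting were not given in the sources used here. FPKM values were also deposited by the authors and equal the count over gene length and library total. Dressings were taken from the labels. Counts were tested with edgeR 4.0.16 (quasi-likelihood F test, TMM factors 0.9023 to 1.12, filterByExpr at its defaults, min.count 10 and min.total.count 15, R 4.3.3), two-sided, with Benjamini-Hochberg adjustment over 13872 of 20104 genes and a threshold of 0.05. SE is the absolute log2 fold change over the square root of F. The fit was tested on simulated data. DESeq2 1.42.0, limma 3.58.1, other scalings and filters, the replicate block and leaving out each library were alternatives. Log2 ratios were compared by exact permutation. The median of a marker list was taken over its log2 levels within each library, so its middle genes can differ between libraries and units. Poisson intervals (95%) cover counting error only. Members and lists were chosen with earlier results of these data known. Named genes were the 10 members, genes of the fibrin list, up to 4 of highest mean CPM in a marker list, and the 4 genes of highest Pearson r with each profile (mean of at least 10 CPM). Neighbouring genes and defining markers near 0 were named outside that rule, after their values were seen. So were the acute phase genes other than Hp, C3 and Itih4. In the RefSeq annotation Fgb, F13a1, Cpb2, Plat and Plau overlap other genes, and how reads of these overlaps were assigned is not known. Promoter sequences are from RefSeq (GRCr8).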

Additional observations from a re-analysis of the deposited data

How the results depend on the processing

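Under every alternative run, 0 of the 10 members and 0 of the 36 tested fibrin genes were called at an adjusted p under 0.05. Over all genes, where edgeR called 0 higher and 0 lower after AKOC (1731 at an unadjusted p under 0.05), DESeq2 called 193 higher and 96 lower, the replicate block called 1 higher, and leaving out 1 library gave 0 to 12 higher and 0 to 6 lower, the most without Quik-clot replicate 2. Libraries of the same number did not deviate together (correlations -0.0719, -0.0822 and -0.201). Deviations from a mean of 3 libraries are tied to each other, so these values cannot show whether the numbers mark a pairing. The labels do not say whether they do. With the replicate block the log2 fold change was 0.043 for Fga and 0.065 for Fgg, and Fgg was 0.016 in limma-voom. F13b was -0.024 with library totals only and -0.019 in limma on log2(FPKM + 1) and on log2(FPKM + 0.1). Cpb2 was -0.057 with library totals only and -0.063 in both FPKM fits. The log2 ratio of fibrinogen to hepatocyte markers was 0.23 in FPKM. Leaving out 1 library moved Fga between -0.41 and 0.54, Fgb between -0.43 and 0.39, Fgg between -0.40 and 0.55, F13a1 between -0.87 and 0.23, F13b between -0.020 and 0.13, Cpb2 between -0.19 and 0.18 and Plau between -0.27 and 0.14. It moved the log2 ratio differences of F13b to F13a1 between -0.099 and 0.91, of Plg to fibrinogen between -0.29 and 0.41, of F13a1 and Plaur to macrophage markers between -0.65 and 0.61 and between -0.64 and 0.15, and of fibrinogen to hepatocyte markers between -0.42 and 0.46. The median log2 fold change of the acute phase list was -0.45 without Quik-clot replicate 2 and 0.13 without Quik-clot replicate 3, alternatives chosen after seeing the data. Plg and Plat stayed above 0 and Plaur below 0 in every setting that gave a value. The cause of these differences was not tested. F13a1 and Plaur gave no value with a filter of at least 1 CPM, and low counts limit both.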
